A study of Mus musculus with 16 samples.

Results

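The genes described here are 32 genes of macrophages and other myeloid cells, out of 18193 genes measured in ovaries of newborn mice. They were taken by name as a fixed list, and each was read from the probe set that maps to that gene alone and has the highest mean level over all arrays. The study hybridised RNA from 16 ovaries to Affymetrix Mouse Genome 430 2.0 arrays, with 4 ovaries in each of 4 genotypes, to learn what the loss of the transcription factors RUNX1 and FOXL2 does to the ovary. One ovary, freed of the mesonephros, gave the RNA of 1 array, which was amplified from 50 ng. The Runx1 KO ovaries were Runx1-/f and Foxl2+/+ with 1 copy of the Sf1-cre transgene. The Foxl2 KO ovaries were Runx1+/f and Foxl2-/- without Cre. The double knockout (DKO) ovaries were Runx1-/f and Foxl2-/- with the same transgene. The control ovaries were Runx1+/f and Foxl2+/+ without Cre, so that every ovary carried a floxed Runx1 allele.

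Sf1-cre is active in somatic cells of the gonad and not by design in blood cells, whereas the Runx1 null allele of the Runx1 KO and DKO pups and the Foxl2 null alleles were present in every cell. The transgene came only with the Runx1 null allele, so their effects cannot be told apart. The labels call the ovaries biological replicates but do not say whether each came from a different pup. If some shared a pup, the p-values below are too small.

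Macrophages settle in the fetal gonad from yolk sac and fetal liver precursors, where they take up dying cells and take part in vessel remodelling. They depend on the transcription factor PU.1, encoded by Spi1, and on the growth factor receptor encoded by Csf1r. RUNX1 is also a regulator of blood cell formation. Some of the genes, among them Csf1r, Mrc1, Mertk and the C1q genes, are most typical of tissue macrophages, whereas Ptprc, Cd53, Laptm5, Itgb2, Tyrobp, Fcer1g, Fcgr3 and Lyz2 are shared with other white blood cells.

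Foxl2 intensity was 484 to 890 in Foxl2 KO ovaries and 570 to 839 in DKO ovaries, against 2774 to 4241 in control ovaries (log2 difference -2.32 ± 0.20 and -2.37 ± 0.20, SE; limma adjusted p = 8.84e-06 and 5.55e-06). Runx1 intensity was 932 to 2127 in Runx1 KO ovaries and 2111 to 2370 in DKO ovaries, against 2142 to 2359 in control ovaries. The Runx1 difference did not pass the test in Runx1 KO ovaries (-0.64 ± 0.19, limma adjusted p = 0.398), and in DKO ovaries it was -0.01 ± 0.19, so this probe set does not check the DKO label. Whether its probes lie in the deleted part was not tested.

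Control replicate 4 stood apart from the other 15 ovaries in genes of blood cell precursors. Of 14 genes of granulocytes and their precursors, 12 were highest there, and so were all 7 erythroid genes. The summed intensity of the granulocyte genes was 524 to 3875 in Runx1 KO ovaries, 854 to 1461 in Foxl2 KO ovaries, 666 to 1549 in DKO ovaries, and 789 to 1119 in control ovaries 1 to 3, against 42957 in control replicate 4. The sums of the erythroid genes were 581 to 666, 559 to 770 and 616 to 817 in Runx1 KO, Foxl2 KO and DKO ovaries, 574 to 785 in control ovaries 1 to 3, and 24100 in control replicate 4. Mpo, the myeloperoxidase of granulocyte precursors, was 3220 in control replicate 4 and at most 46.6 elsewhere. Runx1 KO replicate 3 was high for S100a8 (1256), Ngp (239) and Camp (215), the products of more mature granulocytes, but not for Mpo (4.50). Counts and medians of the 32 genes against control ovaries are therefore given with and without control replicate 4, as are the differences of the genes nearest to a call.

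Expression of the 32 genes was first set against a background. The ovaries are XX, so the 4 Y-linked genes Eif2s3y, Kdm5d, Uty and Usp9y should give no signal, and the highest of their group means was an intensity of 67.4. By that measure 21 of the 32 genes were above background in every genotype. Spi1 passed in control ovaries, and Itgb2 in its only group, through control replicate 4; without that ovary 20 genes were above background in every group and 9, now with Itgb2, in none. With all arrays, Irf8 was above it in 2 groups, Itgb2 and Adgre1 in 1 group each, and 8 genes in none: Fcgr1, Trem2, Cd14, Cd163, Timd4, Folr2, Itgam and Ccr2. With the Y-linked Sry, whose probe set read 343 at its highest group mean, only 6 genes would be above background in every group. The tissue macrophage label thus had Csf1r, all 3 C1q genes, Mrc1, Mertk, Stab1, Cd68, Aif1 and Cx3cr1 above the first background, while its classical marker Adgre1, which encodes F4/80, was above it in Foxl2 KO ovaries only.

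No gene of the 32 differed between genotypes in any of 6 comparisons at a limma adjusted p under 0.05. For Runx1 KO against control ovaries the count was 0 of 32, beside 0.121% of all genes called. For Foxl2 KO it was 0 of 32, beside 1.52% of all genes, and for DKO 0 of 32, beside 2.13%. At an unadjusted p under 0.05 the counts were 0, 1 and 2 of the 32 genes, and the shares of all genes were 7.34%, 11% and 12.4%. The median log2 difference of the 32 genes was -0.08 in Runx1 KO, -0.03 in Foxl2 KO and -0.04 in DKO ovaries, and that of all genes was 0.04, 0.05 and 0.04. No gene of the 32 had its 4 knockout values wholly above or wholly below the 4 control values in any knockout group; of all genes, 2.53%, 4.49% and 4.9% lay wholly above and 1.44%, 2.23% and 2.71% wholly below in Runx1 KO, Foxl2 KO and DKO ovaries. In whole ovaries, fewer cells of a type and less RNA per cell cannot be told apart.

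**Figure D1:**
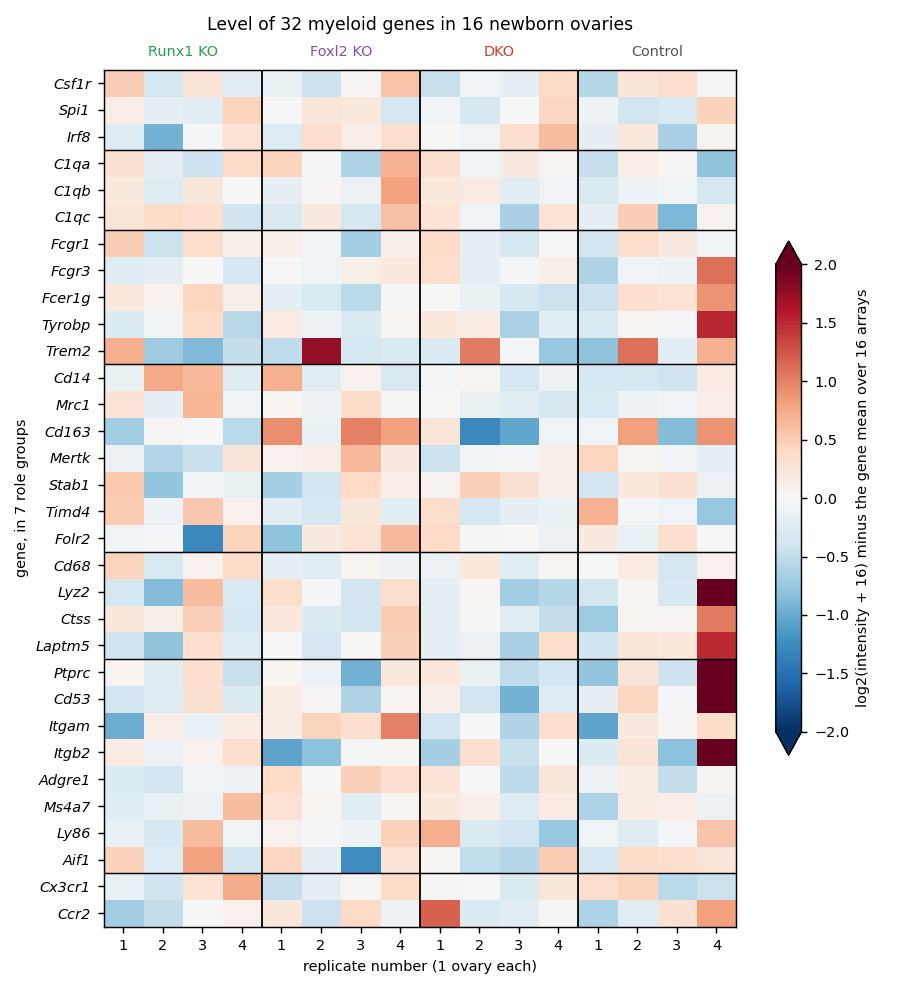
Level of each of the 32 genes (rows, grouped by role) in each of the 16 ovaries (columns), as log2(intensity + 16) minus the gene's mean over all ovaries. Control replicate 4 is the column that stands out, and it does so for part of the rows, with Itgb2, Ptprc and Lyz2 the strongest.

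Among the lineage regulators, Csf1r, the receptor that macrophages need for survival, had intensities of 1214, 673, 1030 and 744 in Runx1 KO ovaries, 783, 640, 874 and 1285 in Foxl2 KO ovaries and 629, 821, 764 and 1140 in DKO ovaries, against 576, 1035, 1098 and 848 in control ovaries. The 4 groups overlapped over nearly their whole range, and the log2 differences from control were 0.04 ± 0.26, 0.00 ± 0.26 and -0.07 ± 0.26 in Runx1 KO, Foxl2 KO and DKO ovaries. The 95% interval of the DKO difference ran from -0.63 to 0.48. Spi1, the PU.1 gene, spanned 62.3 to 108 in Runx1 KO, 56.4 to 91.2 in Foxl2 KO and 56.8 to 105 in DKO ovaries, against 54.4 to 110 in control ovaries. Irf8, a partner of PU.1 in monocytes, spanned 30.5 to 122 over all ovaries.

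The C1q chains assemble into the molecule that starts the classical complement pathway, and all 3 had positive differences in each knockout group, none of which passed the test. C1qb had 1012, 741, 1040 and 877 in Runx1 KO ovaries, 788, 901, 816 and 1561 in Foxl2 KO ovaries and 1025, 988, 751 and 841 in DKO ovaries, against 718, 820, 854 and 690 in control ovaries. Several knockout ovaries lay above all controls, but each group also had values within the control range. The log2 differences were 0.24 ± 0.20, 0.34 ± 0.20 and 0.22 ± 0.20 for Runx1 KO, Foxl2 KO and DKO (limma adjusted p = 0.825, 0.577 and 0.721). Control replicate 4 was the lowest of all ovaries for C1qb and C1qa. Without it the C1qb differences were 0.19, 0.29 and 0.17 in the same groups. Those of C1qa went from 0.30, 0.40 and 0.40 to 0.13, 0.23 and 0.22. Those of C1qc rose, from 0.27, 0.17 and 0.09 to 0.34, 0.24 and 0.16.

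C1qb is read by 3 probe sets, and 1 of those not used as its measure did separate the groups. It gave 584, 556, 628 and 687 in Runx1 KO ovaries, 499, 656, 593 and 725 in Foxl2 KO ovaries and 752, 712, 560 and 701 in DKO ovaries, against 491, 522, 544 and 504 in control ovaries. The Runx1 KO and DKO values lay wholly above the controls, and the Foxl2 KO values overlapped them. The differences were 0.24 ± 0.14, 0.24 ± 0.14 and 0.38 ± 0.14 in Runx1 KO, Foxl2 KO and DKO ovaries (limma adjusted p = 0.803, 0.600 and 0.241 over all probe sets). Of all 34945 probe sets with 1 gene, 2.15% lay wholly above control in Runx1 KO and 4.2% in DKO ovaries, so 1 of the 50 probe sets of the 32 genes in each is near the background. Its name and that of the probe set used for C1qb end in _x_at, the Affymetrix suffix for sets with probes that may also bind other sequences.

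C1qa spanned 78.3 to 148 in Runx1 KO, 66.7 to 185 in Foxl2 KO and 102 to 141 in DKO ovaries, against 55.8 to 121 in control ovaries. C1qc had 113, 123, 120 and 66.5 in Runx1 KO ovaries, 72.6, 107, 70.0 and 146 in Foxl2 KO ovaries and 115, 87.1, 53.1 and 115 in DKO ovaries, against 78.9, 137, 41.8 and 97.7 in control ovaries. The control values alone covered nearly the whole range of C1qc.

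Fc receptors bind antibody, and Fcer1g encodes an adaptor for their signals, whereas Tyrobp encodes an adaptor of other receptors, among them Trem2. Fcer1g had the smallest p of the 32 genes in Foxl2 KO ovaries. Its intensities were 336, 304, 395 and 312 in Runx1 KO ovaries, 253, 231, 192 and 284 in Foxl2 KO ovaries and 290, 261, 228 and 210 in DKO ovaries, against 210, 367, 357 and 548 in control ovaries. Control replicate 1 lay among the Foxl2 KO and DKO values and the other 3 controls above them. The log2 difference was -0.53 ± 0.22 in Foxl2 KO (95% interval -0.99 to -0.07, limma adjusted p = 0.358) and -0.49 ± 0.22 in DKO ovaries (limma adjusted p = 0.366). Without control replicate 4 these were -0.33 ± 0.19 and -0.29 ± 0.19 (limma adjusted p = 0.686 and 0.672).

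Tyrobp had 421, 485, 674 and 345 in Runx1 KO ovaries, 575, 475, 416 and 529 in Foxl2 KO ovaries and 587, 567, 325 and 437 in DKO ovaries, against 414, 530, 499 and 1485 in control ovaries. Apart from control replicate 4, the groups overlapped throughout. Fcgr3, a low-affinity IgG receptor, spanned 138 to 177 in Runx1 KO, 167 to 206 in Foxl2 KO and 154 to 230 in DKO ovaries, against 111 to 399 in control ovaries. Fcgr1 stayed between 29.7 and 86.8 in all ovaries. Trem2, a lipid-sensing receptor that signals through Tyrobp, had 40.1, 4.55, 2.27 and 8.30 in Runx1 KO ovaries, 7.74, 98.2, 10.5 and 11.7 in Foxl2 KO ovaries and 11.7, 53.6, 17.1 and 3.95 in DKO ovaries, against 3.28, 56.5, 13.2 and 39.4 in control ovaries. Both genes were in the range of the Y-linked background, so their differences were not detectable here.

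Of the receptors for dead cells and debris, Mertk, which binds Gas6 and protein S on dying cells, had 365, 260, 288 and 483 in Runx1 KO ovaries, 424, 437, 638 and 452 in Foxl2 KO ovaries and 291, 384, 392 and 434 in DKO ovaries, against 544, 418, 386 and 352 in control ovaries. All 4 groups overlapped, with log2 differences of -0.29 ± 0.20, 0.19 ± 0.20 and -0.17 ± 0.20 in Runx1 KO, Foxl2 KO and DKO ovaries. The mannose receptor gene Mrc1 had 475, 350, 631 and 368 in Runx1 KO ovaries, 402, 366, 510 and 398 in Foxl2 KO ovaries and 395, 358, 337 and 309 in DKO ovaries, against 312, 360, 370 and 431 in control ovaries. Mrc1 also had the smallest p of the 32 genes for the interaction of the 2 losses (DKO minus both single knockouts plus control), at -0.51 ± 0.25 (limma adjusted p = 0.910). Stab1, a scavenger receptor also present on sinusoidal endothelium, spanned 121 to 322 in Runx1 KO, 132 to 293 in Foxl2 KO and 231 to 312 in DKO ovaries, against 164 to 274 in control ovaries.

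The other members of that class were at the level of the background. Cd163, the haemoglobin scavenger receptor, had 12.9, 31.3, 30.5 and 16.3 in Runx1 KO ovaries, 73.1, 26.6, 78.1 and 66.1 in Foxl2 KO ovaries and 39.5, 3.14, 6.62 and 27.9 in DKO ovaries, against 28.2, 66.4, 9.48 and 71.3 in control ovaries. Cd14, a co-receptor for bacterial lipopolysaccharide, had 5.31, 23.6, 21 and 3.94 in Runx1 KO ovaries, 22.4, 4.23, 8.66 and 2.95 in Foxl2 KO ovaries and 7.13, 8.45, 2.67 and 5.94 in DKO ovaries, against 2.37, 2.75, 1.90 and 10.3 in control ovaries. Timd4, a phosphatidylserine receptor, stayed between 12.2 and 60.8, and the folate receptor gene Folr2 between 14.2 and 99.3. No order of the genotypes can be read from these 4 genes.

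Among the lysosomal genes, Laptm5 had the smallest p of the 32 genes in Runx1 KO ovaries. It encodes a lysosomal membrane protein of blood cells. Its intensities were 990, 742, 1649 and 1091 in Runx1 KO ovaries, 1302, 1037, 1320 and 1827 in Foxl2 KO ovaries and 1146, 1205, 832 and 1674 in DKO ovaries, against 990, 1552, 1523 and 3704 in control ovaries. The Runx1 KO difference was -0.67 ± 0.34 (limma adjusted p = 0.707), and without control replicate 4 it was -0.30 ± 0.28 (limma adjusted p = 0.944). The probe set used for Laptm5 carries the same suffix as that of C1qb. The other Laptm5 probe sets, with all arrays, gave -0.09 ± 0.19, -0.54 ± 0.26, -0.26 ± 0.33 and -0.005 ± 0.38.

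The macrophage lysozyme gene Lyz2 had 266, 182, 534 and 275 in Runx1 KO ovaries, 444, 338, 262 and 443 in Foxl2 KO ovaries and 303, 354, 206 and 226 in DKO ovaries, against 264, 356, 272 and 2219 in control ovaries. Control replicate 4 was far above all others, and the other 3 controls lay within the pooled range of the 12 knockout ovaries. The protease gene Ctss spanned 512 to 918 in Runx1 KO, 509 to 944 in Foxl2 KO and 470 to 642 in DKO ovaries, against 390 to 1351 in control ovaries. Cd68, a glycoprotein of late endosomes, was the steadiest of the class, at 67.1 to 123 in Runx1 KO, 71.4 to 90.8 in Foxl2 KO and 71.4 to 103 in DKO ovaries, against 65.5 to 98.8 in control ovaries.

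Of the surface and adhesion proteins, Cd53, a tetraspanin of white blood cells, had the smallest p of the 32 genes in DKO ovaries. Its intensities were 243, 266, 400 and 262 in Runx1 KO ovaries, 357, 325, 206 and 331 in Foxl2 KO ovaries and 347, 243, 158 and 265 in DKO ovaries, against 284, 437, 310 and 1571 in control ovaries. The log2 difference in DKO ovaries was -0.98 ± 0.41 (95% interval -1.85 to -0.11, limma adjusted p = 0.320). Without control replicate 4 it was -0.44 ± 0.26 (limma adjusted p = 0.596).

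Ptprc, which encodes the pan-leukocyte antigen CD45, and Itgb2, the integrin chain shared by leukocyte adhesion molecules, were singled out after their values were seen. Ptprc had 127, 102, 161 and 86.1 in Runx1 KO ovaries, 128, 112, 56.6 and 145 in Foxl2 KO ovaries and 146, 111, 81.9 and 90.8 in DKO ovaries, against 64.3, 151, 88.0 and 1008 in control ovaries. Itgb2 had 67.3, 52.2, 63.2 and 77.2 in Runx1 KO ovaries, 19.7, 25.9, 56.0 and 60.4 in Foxl2 KO ovaries and 30.9, 77.2, 38.7 and 58.1 in DKO ovaries, against 45.6, 73.2, 25.9 and 598 in control ovaries. In both genes a single control ovary was several times above every other ovary, and the remaining 15 overlapped. Its Foxl2 KO difference made Itgb2 the only gene of the 32 with more than 1 log2 unit between a knockout group and control, at -1.03 ± 0.59, and it was -0.20 ± 0.31 without control replicate 4.

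Ms4a7, a membrane protein of macrophages, had 123, 132, 136 and 235 in Runx1 KO ovaries, 184, 153, 125 and 152 in Foxl2 KO ovaries and 172, 160, 121 and 167 in DKO ovaries, against 91.5, 166, 164 and 135 in control ovaries. Adgre1 spanned 47.0 to 59.96 in Runx1 KO, 64.3 to 96.2 in Foxl2 KO and 40.1 to 81.6 in DKO ovaries, against 42.5 to 74.2 in control ovaries. Its Foxl2 KO difference of 0.38 ± 0.19 did not pass the test (limma adjusted p = 0.473). Ly86 spanned 64.2 to 210 over all ovaries and Aif1, which encodes the actin-binding IBA1, 36.6 to 201, while Itgam, the CD11b gene, stayed at 8.55 to 85.7.

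Of the chemokine receptors, Cx3cr1, the receptor for fractalkine on macrophages and monocytes, had 87.8, 71.9, 123 and 178 in Runx1 KO ovaries, 68.3, 85.8, 102 and 132 in Foxl2 KO ovaries and 101, 100, 78.8 and 119 in DKO ovaries, against 131, 141, 63.2 and 69.4 in control ovaries. Ccr2, which draws monocytes out of the blood, was at 6.72 to 67.9 in all ovaries. Neither gave groups that stood apart.

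**Figure D2:**
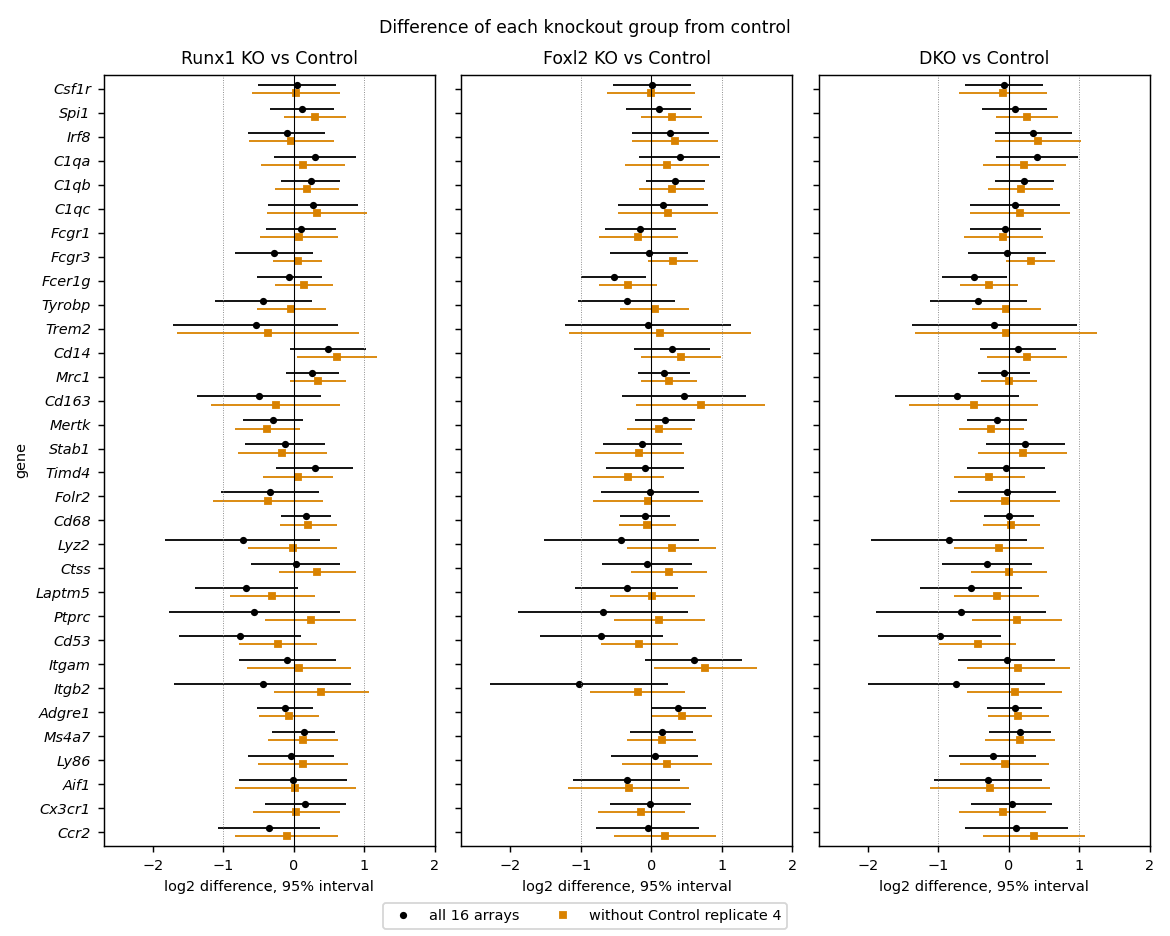
Log2 difference of each of the 32 genes from control (x axis, log2 units) in Runx1 KO, Foxl2 KO and DKO ovaries (panels), with 95% intervals, from all arrays and without control replicate 4. With all arrays the estimates reach from -1.03 to 0.60, and the genes with wide intervals on the left, such as Cd53, Ptprc, Lyz2 and Itgb2, move towards 0 without control replicate 4.

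Leaving out control replicate 4 changed the sign of the medians in the single knockouts and added no call. The median of the 32 genes became 0.06 in Runx1 KO, 0.13 in Foxl2 KO and 0.00 in DKO ovaries, where that of all genes was 0.02, 0.04 and 0.03. Differences above 0 numbered 20, 21 and 16 of the 32 genes without that ovary, against 13, 14 and 12 with it. The calls stayed at 0 of 32 in all 6 comparisons, beside 0.104%, 1.31% and 1.92% of all genes called for Runx1 KO, Foxl2 KO and DKO against control ovaries, 0.044% and 1.13% for DKO against Foxl2 KO and Runx1 KO ovaries, and 0% for the interaction, where 0 genes were called. At an unadjusted p under 0.05, 1, 2 and 0 of the 32 genes passed in the 3 comparisons with control, beside 5.93%, 9.45% and 10.9% of all genes: Cd14 in Runx1 KO (0.62 ± 0.27, limma adjusted p = 0.808), and Itgam (0.77 ± 0.34, 0.494) and Adgre1 (0.44 ± 0.20, 0.525) in Foxl2 KO ovaries.

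The 10 genes highest of all 16 ovaries in control replicate 4 were Spi1, Fcgr3, Fcer1g, Tyrobp, Lyz2, Ctss, Laptm5, Ptprc, Cd53 and Itgb2, and of all genes 10.2% were highest there. This group was formed after the values were seen and gets no test. By Dixon's ratio, the gap to the next ovary over the range of the group, control replicate 4 was high among the 4 controls for Lyz2 and Cd14, beside 1.69% of all genes. On the log2(intensity + 16) scale, that ovary exceeded the mean of the other 3 controls 10.01-fold for Itgb2, 9.16-fold for Ptprc, 7.19-fold for Lyz2, 4.49-fold for Cd53 and 3.04-fold for Tyrobp. For the macrophage genes Csf1r, C1qb, Mertk, Stab1 and Ms4a7 the same ratio was 0.976, 0.870, 0.798, 0.894 and 0.994, and for Mrc1 and Cd68 it was 1.23 and 1.10. The ovarian genes examined as a tissue check were all below 1 in that ovary, from 0.376 for Figla to 0.949 for Nr5a1. The ratios are not corrected for this. Ly86 (1.61), Trem2 (1.61), Cd163 (1.93) and Ccr2 (1.99) were higher there than the mean of the other controls without being the highest of all ovaries. Over the 22 genes outside the group the ratio ran from 0.518 for Timd4 to that of Ccr2. The summed intensity of the 10 genes was 12993 in control replicate 4, against 2685 to 5034 in the other 15 ovaries. That of the other 12 genes above background in every group was 3288 there and 2814 to 4939 elsewhere.

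The 10 genes were picked for their level in that ovary, so the sign of their differences from control is in part set by the choice. Their median log2 difference was -0.44 in Runx1 KO, -0.39 in Foxl2 KO and -0.51 in DKO ovaries with all arrays, and without control replicate 4 the medians were 0.10, 0.08 and -0.02. The granulocyte and erythroid genes had median differences of -0.91 and -1.13 in Runx1 KO, -0.79 and -1.20 in Foxl2 KO and -0.89 and -1.07 in DKO ovaries with all arrays, and 0.05 and 0.01, 0.28 and 0.03, and 0.14 and 0.17 in the same groups without it; 0 of 14 and 0 of 7 were called in each. Their part in the differences of the 10 genes was not tested.

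**Figure D3:**
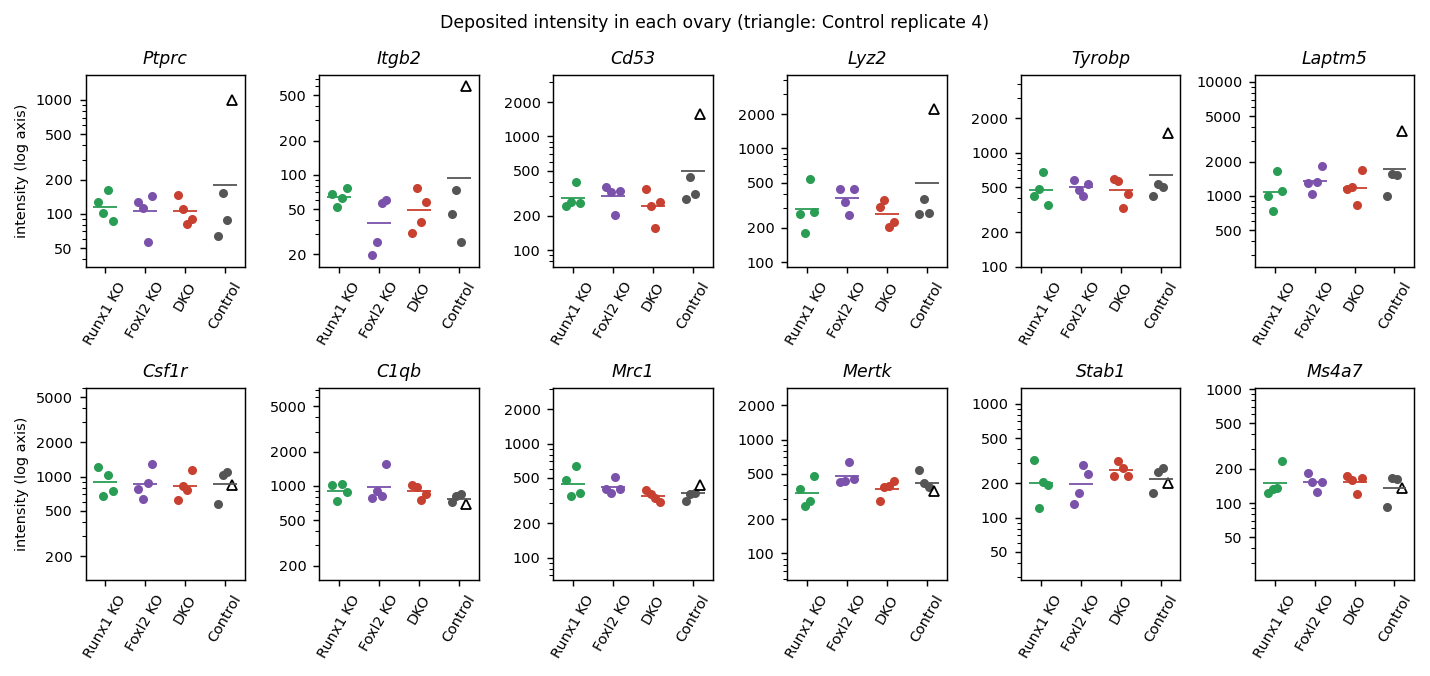
Deposited intensity (y axis, logarithmic, the same fold span in each panel) of 6 genes that were highest in control replicate 4 (upper row) and 6 that were not (lower row), in each ovary of the 4 genotypes; bars mark the mean of log2(intensity + 16), converted back. The triangle, control replicate 4, lies above all other points in the upper row; in the lower row it lies among them, except for C1qb, where it is the lowest at 690.

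Runx1 KO replicate 3, the ovary with more S100a8, Ngp and Camp, was also the highest of the 4 Runx1 KO ovaries for 8 of these 10 genes. It was so for 6 of the other 22 genes and for 26.8% of all genes. The summed intensity of the 10 genes was 5034 in that ovary and 3070 to 3453 in the other Runx1 KO ovaries.

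The sequences next to the start sites of these genes were then inspected for the core motifs of PU.1 and RUNX proteins, because PU.1 acts on many myeloid promoters and Runx1 is the gene deleted. RefSeq windows (build GRCm38.p6) were given for 25 of the 32 genes, and the 250 bases before the start were searched on both strands. The PU.1 core GAGGAA, or its reverse complement TTCCTC, occurred before 14 of 25 genes (56%), against 25.9% of 27025 genes in the same table. It was found before 5 of the 7 genes with a window among the 10 above (71.4%) and before 9 of the other 18 (50%). The RUNX core TGTGGT, or ACCACA, occurred before 5 of 25 genes (20%), against 15.9% of all genes. Neither of the 2 motifs contains the other.
Lines 1 to 4 show the PU.1 core, in capitals, before genes that were high in control replicate 4, and lines 5 to 8 before macrophage genes that were not; each reads 5′ to 3′ along the gene's strand.
Ptprc: tgttttcctttaGAGGAAaattgagacgaa
Cd53: tgcaagttcactGAGGAAcagttgactatc
Laptm5: gcagcctgtggcTTCCTCttttttgttctg
Ctss: gacacagggttgGAGGAAaactttgtcctg
C1qb: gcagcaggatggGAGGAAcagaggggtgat
C1qc: gacggcagacacTTCCTCattttggcacac
Mrc1: aaaagggacagcTTCCTCtgtcctcctttt
Stab1: gctgatacgcagGAGGAAatcctggtgggt
These stretches lie at chr1:138175446-138175475 (minus strand) for Ptprc, chr3:106790171-106790200 (minus) for Cd53, chr4:130913266-130913295 (plus) for Laptm5, chr3:95526610-95526639 (plus) for Ctss, chr4:136886213-136886242 (minus) for C1qb, chr4:136893090-136893119 (minus) for C1qc, chr2:14229367-14229396 (plus) for Mrc1 and chr14:31168654-31168683 (minus) for Stab1. The motif begins 30 bases before the start of C1qb and Stab1, 35 before Mrc1, 38 before Laptm5, 39 before Cd53, 158 before Ptprc, 164 before Ctss and 193 before C1qc.
The RUNX core, again in capitals, is shown for 3 genes of different behaviour in control replicate 4, where Lyz2 was highest and C1qc and Cx3cr1 were not.
Lyz2: caaatgtaggaaACCACAagctgttgggaa
C1qc: tagagatatcacTGTGGTcagcctggatca
Cx3cr1: taaagatagggtACCACAcaggaaaccaga
They lie at chr10:117282321-117282350 for Lyz2, chr4:136893029-136893058 for C1qc and chr9:120068333-120068362 for Cx3cr1, all on the minus strand. These 3 genes had Runx1 KO log2 differences of -0.73 ± 0.52, 0.27 ± 0.30 and 0.17 ± 0.27, none past the test. A match of letters is a description of the window and not a binding site.

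Between the double and the single knockouts, which share no control ovaries, again no gene of the 32 was called. The count was 0 of 32 for DKO against Foxl2 KO ovaries, beside 0.0605% of all genes, and 0 of 32 for DKO against Runx1 KO ovaries, beside 0.989%. The interaction, which also uses the control ovaries, gave 0 of 32, beside 0.011%. At an unadjusted p under 0.05 there were 1, 0 and 0 of the 32 genes in these 3 comparisons with all arrays, beside 5.38%, 9.43% and 5.33% of all genes. Without control replicate 4, Fcer1g passed for DKO against Runx1 KO ovaries (-0.43 ± 0.18, limma adjusted p = 0.426). For the interaction Mrc1 (-0.59 ± 0.25, limma adjusted p = 0.990) and Cd14, a gene below background (-0.78 ± 0.36), then passed. The shares of all genes that passed were not taken without that ovary.

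The 1 gene that passed with all arrays was Cd163, at -1.20 ± 0.41 in DKO relative to Foxl2 KO ovaries (limma adjusted p = 0.652). Its level was below background in both. Fcer1g had the smallest p for DKO against Runx1 KO ovaries (-0.43 ± 0.22, limma adjusted p = 0.589). It was the only one of the 32 genes whose groups did not overlap there, with 210 to 290 in DKO and 304 to 395 in Runx1 KO ovaries; of all genes 2.71% had DKO values wholly below those of Runx1 KO and 3.22% wholly above. Between DKO and Foxl2 KO ovaries all 32 genes overlapped, beside 1.78% of all genes wholly above and 1.79% wholly below. The medians of the 32 genes were -0.05 for DKO against Foxl2 KO, -0.12 for DKO against Runx1 KO and -0.08 for the interaction, and those of all genes were 0.00, 0.02 and -0.03.

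The precision of these null results differed between genes. The standard error of a difference between 2 genotypes had a median of 0.27 over the 32 genes and ranged from 0.17 to 0.59. The 95% interval lay within 1 log2 unit of 0 on both sides for 21, 22 and 23 of the 32 genes in Runx1 KO, Foxl2 KO and DKO against control ovaries, and for 26, 28 and 27 without control replicate 4. Of the 21 genes above background in every group with all arrays, 16, 15 and 15 had such an interval, and 20, 20 and 20 of the same 21 without that ovary. These 21 genes include Spi1, which was above background in control ovaries only through control replicate 4. For Csf1r, C1qb, Mrc1 and Mertk, 4 of the genes most typical of macrophages, a change beyond 2-fold in either direction was outside the interval in all 3 knockout groups with all arrays.

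Of 8 genes for ligands of these receptors (Csf1, Il34, Cx3cl1, Ccl2, Ccl7, Gas6, Pros1 and Apoe) 0 were called in any comparison. Pros1, which encodes protein S, a ligand of MERTK, had 1448, 1222, 1539 and 1492 in Runx1 KO ovaries, 937, 1054, 1153 and 981 in Foxl2 KO ovaries and 1025, 1134, 1006 and 1123 in DKO ovaries, against 1282, 1486, 1583 and 1196 in control ovaries. Both groups without Foxl2 lay wholly below the controls, beside 2.23% of all genes in Foxl2 KO and 2.71% in DKO ovaries, with differences of -0.42 ± 0.12 in Foxl2 KO (limma adjusted p = 0.142) and -0.36 ± 0.12 in DKO ovaries (limma adjusted p = 0.188). Without control replicate 4 they were -0.48 ± 0.13 and -0.43 ± 0.13 (limma adjusted p = 0.0962 and 0.135). Csf1, the ligand of the Csf1r receptor, spanned 195 to 470 in Runx1 KO, 224 to 333 in Foxl2 KO and 222 to 301 in DKO ovaries, against 178 to 370 in control ovaries.

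A further 25 macrophage genes were listed, of which 22 were measured and 0 called. The nearest to the threshold was Syk, the kinase that Fcer1g and Tyrobp recruit, with 234, 110, 229 and 189 in Runx1 KO ovaries, 293, 247, 279 and 266 in Foxl2 KO ovaries and 276, 296, 312 and 315 in DKO ovaries, against 138, 231, 157 and 183 in control ovaries. Both groups without Foxl2 lay wholly above the controls, beside 4.49% of all genes in Foxl2 KO and 4.9% in DKO ovaries, with differences of 0.59 ± 0.20 (limma adjusted p = 0.211) and 0.73 ± 0.20 (limma adjusted p = 0.0710). Without control replicate 4 they were 0.61 ± 0.22 and 0.75 ± 0.22 (limma adjusted p = 0.300 and 0.120). Fcgr2b, the inhibitory Fc receptor, had 321, 166, 404 and 192 in Runx1 KO ovaries, 801, 382, 301 and 548 in Foxl2 KO ovaries and 449, 488, 711 and 408 in DKO ovaries, against 237, 230, 309 and 210 in control ovaries. The DKO values lay wholly above the controls and the Foxl2 KO values overlapped them. The differences were 0.92 ± 0.30 in Foxl2 KO (limma adjusted p = 0.205) and 1.00 ± 0.30 in DKO ovaries (limma adjusted p = 0.118), and 0.85 ± 0.33 and 0.93 ± 0.33 without control replicate 4. Both genes are also expressed outside macrophages, and the cells that carried them here are not known from whole ovaries. Of the 22 genes, 9 were highest in control replicate 4, among them Cybb (966), Coro1a (1220), C5ar1 (981), Mpeg1 (365) and C3ar1 (126). Cybb, the phagocyte oxidase gene, lay wholly below the controls in DKO ovaries, beside 2.71% of all genes. It had 15.6 to 53.7 in DKO ovaries, against 59.8, 115, 57.4 and 966 in control ovaries (limma adjusted p = 0.266). The 966 was control replicate 4. All DKO values of Cybb, and those of control replicates 1 and 3, were below the background of 67.4.

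**Figure D4:**
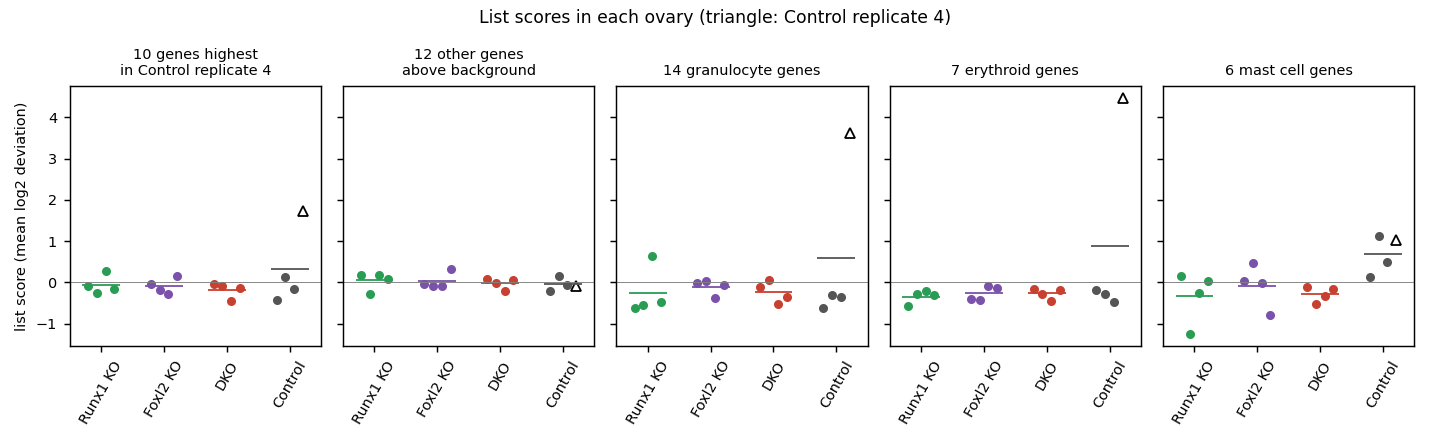
Score of each gene list in each ovary (y axis, mean over the list's genes of log2(intensity + 16) minus the gene's mean over 16 ovaries), by genotype; bars are group means. Control replicate 4, the triangle, is at 3.62 for granulocyte genes and 4.48 for erythroid genes, and the other ovaries are between -0.62 and 0.65.

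Of the other blood cells, mast cells gave the only call among the lists examined here that are not ovarian. Cpa3, the mast cell carboxypeptidase, fell in DKO ovaries, with 303, 134, 186 and 137, against 351, 802, 641 and 703 in control ovaries (-1.65 ± 0.38, limma adjusted p = 0.0353, beside 0.857% of all genes called lower). Cpa3 spanned 121 to 452 in Runx1 KO and 167 to 452 in Foxl2 KO ovaries, both overlapping the controls. The DKO values lay wholly below the controls, beside 2.71% of all genes. The call was lost without control replicate 4 (-1.57, limma adjusted p = 0.0894) and likewise without control replicate 2 or 3 or DKO replicate 2, 3 or 4. The other 5 mast cell genes were not called, but 3 of them also lay wholly below the controls in DKO ovaries. Cma1, a chymase gene, had 279 to 450 in DKO ovaries, against 667 to 1539 in control ovaries (limma adjusted p = 0.137). Mcpt4, another mast cell protease gene, had 97.3 to 256, against 264 to 464 (limma adjusted p = 0.380). Ms4a2, a chain of the IgE receptor, had 3.13 to 26.1, against 29.6 to 479 (limma adjusted p = 0.177). Tpsb2 overlapped the controls, with 70.4 to 158.9 in DKO ovaries, against 116.5 to 322.8. Hdc also overlapped them but reached higher values in DKO ovaries, with 324 to 563, against 236 to 377. Mcpt4 and Ms4a2 lay wholly below the controls in Foxl2 KO ovaries as well (limma adjusted p = 0.503 and 0.177), beside 2.23% of all genes. All DKO and Foxl2 KO values of Ms4a2, and those of control replicates 1 and 3, were below the background of 67.4. Its 479 was control replicate 4. Over all 6 the median difference was -0.99 in Runx1 KO, -0.84 in Foxl2 KO and -1.15 in DKO ovaries, with 6, 5 and 5 below 0, and without control replicate 4 it was -0.95, -0.86 and -1.03. Ms4a2 alone of these 6 genes was highest in control replicate 4. Of the other blood cell genes, Epx in Runx1 KO (25.3 to 31.95, against 1.47 to 21.9 in control ovaries), Itga2b in Foxl2 KO (15 to 22.4, against 4.76 to 12.1) and Gp1bb in DKO ovaries (41.0 to 102, against 11.8 to 40.2) lay wholly above the controls, none of them called (limma adjusted p = 0.591, 0.0999 and 0.335). Of all genes, 2.53%, 4.49% and 4.9% lay wholly above control in those groups. Every value of Epx and Itga2b was below the background intensity of 67.4.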

How the data were processed

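The authors deposited, per the file headers and labels, 1 intensity for each of 45101 probe sets on 16 arrays, made with Affymetrix Expression Console 1.2. The values are linear intensities, and each array has a trimmed mean of 500 (2% trimmed at each end); the summary algorithm of the deposited table is not given in the sources used here. Array medians were 134 to 177. The number of arrays limits the precision. The 64 control probe sets were left out; 34945 probe sets had 1 gene symbol in the platform annotation, 932 several and 9160 none. Where several probe sets read 1 of the 18193 genes, the one with the highest mean level stood for it.

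Values were taken as log2(intensity + 16) and fitted with limma 3.58.1 in R 4.3.3 over 4 group means (residual degrees of freedom 12), which was tested on simulated data. Tests were two-sided, with Benjamini-Hochberg adjustment over all genes of a comparison. Background was the highest group mean of 4 Y-linked genes; Sry was left out after its values were seen. Each of the 50 probe sets of the 32 genes was also tested.

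The genes and lists were chosen with earlier results of these data known. Values in every ovary were given, by rule, for genes called, not overlapping with control, with 1 ovary far from its group, of smallest p in a comparison, or of highest level in their class. For other lists, genes were named if called or among the smallest p of a comparison; those not overlapping with control were added after their values were seen. Alternatives covered offset, scaling, probe set choice, dim genes, variance prior, array weights, replicate number, samples fitted, call rule, the methods' analysis of variance and each array left out.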

Additional observations from a re-analysis of the deposited data

Results flagged for a closer look

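Within a group of 4 ovaries, the gap between the extreme ovary and its nearest neighbour was divided by the group's range (Dixon's ratio, critical value 0.829). Of 128 tests over the 32 genes and 4 groups, 6 passed; chance flags about 0.05 of such groups, which over 128 is 6.4. High values were found for Lyz2 in control replicate 4 (ratio 0.864; 2219, against 264 to 356 in the other controls), Mertk in Foxl2 KO replicate 3 (0.845; 638, against 424 to 452) and Ms4a7 in Runx1 KO replicate 4 (0.849; 235, against 123 to 136). C1qc was low in Runx1 KO replicate 4 (0.854; 66.5, against 113 to 123). Trem2 in Foxl2 KO replicate 2 (0.901; 98.2, against 7.74 to 11.7) and Cd14 in control replicate 4 (0.880; 10.3, against 1.90 to 2.75) were below background as group means.

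Among list scores, the granulocyte score was high in control replicate 4 (ratio 0.923; score 3.62) and in Runx1 KO replicate 3 (0.888; 0.65), and the erythroid score in control replicate 4 (0.942; 4.48). The C1q score was high in control replicate 2 (0.911; 0.18, against -0.36 to -0.31 in the other controls). In Foxl2 KO replicate 2 the lymphoid score (0.889; 0.38) and the megakaryocyte score (0.844; 0.35) were high. The score of the 5 Y-linked genes was low in Foxl2 KO replicate 1 (0.841; -0.16, against 0.19 to 0.25).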

How the results depend on the processing

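The 32 genes gave 0 calls in each comparison under 15 alternatives and 16 fits that each left out an ovary, with 1 exception: the methods' analysis of variance, unadjusted and over 1.5-fold, called 1 gene for DKO against Foxl2 KO ovaries, Cd163 (-1.20), which the same analysis with adjustment did not. That analysis was run here on log2(intensity + 16) of the deposited values, whereas the paper ran its own on log2 intensities from Robust Multichip Average normalization. Cd163 was below background in every group. The share of all genes called by that unadjusted rule is not given here. At an unadjusted limma p under 0.05, without a fold limit, it was 5.38% for this comparison. The median over the genes in DKO against control ovaries was -0.37 among the 10 genes above the median level, against -0.04 for all 32. That of all genes above the median level was 0.003. Those 10 included Fcer1g, Tyrobp, Lyz2, Ctss, Laptm5 and Cd53, each highest in control replicate 4. Without that ovary the DKO differences of these named genes were -0.29, -0.04, -0.14, -0.004, -0.17 and -0.44. The median of the 10 was not taken without it. With each ovary left out in turn the medians ranged from -0.17 to 0.06 in Runx1 KO, -0.08 to 0.13 in Foxl2 KO and -0.16 to 0.00 in DKO against control ovaries. The Cpa3 call in DKO ovaries was also lost with an offset of 1 (limma adjusted p = 0.0539), a floor of 16 (0.0603), and the adjusted analysis of variance of the methods (0.0857).

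Ovaries with the same replicate number share only that number: of 24 such pairs across groups 1 had a correlation of deviations above 0.1, and the median was -0.03. With the replicate number as a block, the counts stayed at 0 of 32, the Cd53 difference in DKO ovaries had an adjusted p of 0.349 in limma and the Cpa3 difference one of 0.0744.

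The number of ovaries limits every comparison, and dim signals limit some genes: 8 of the 32 genes were not above background in any group, and no difference in them was detectable. All comparisons with control ovaries share the same 4 controls. RNA was amplified before labelling, and no cell counts accompany the arrays.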
